A study of Mus musculus with 18 samples.

Results

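The livers compared here came from adult offspring whose dams had eaten a high protein (HP) diet either in pregnancy alone or in lactation alone. They were sampled at postnatal day 150, long after either exposure had ended. The members were chosen by the labels: 3 arrays of HP pregnancy (replicates 1 to 3) and 3 of HP lactation (replicates 4 to 6), 6 of the 18 arrays of the series. All mice were of DUK, an outbred mouse line bred from 4 outbred and 4 inbred lines. The HP pregnancy dams received 40% protein by weight in pregnancy and 20% in lactation, and the HP lactation dams 20% and then 40%. Control dams, whose offspring supply a reference level, received 20% throughout, and the diets were isoenergetic. No array of this comparison is a control array. The same diets at day 21 gave 3 arrays a group. Each array measured a pool of livers, described in the labels as 3 animals, as 3 to 4 at day 150, or as 4 to 5 animals of a group combined to 3 pools. Whether pools of a group share animals is not given, so each p-value below describes the spread between pools and would be too small if they do.

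The liver makes fatty acids and cholesterol from acetyl-CoA, under the transcription factors SREBP-1c and SREBP-2, and releases glucose between meals from glucose 6-phosphate in the endoplasmic reticulum. It also folds and glycosylates most plasma proteins, among them coagulation and complement factors. Maternal protein intake is a commonly studied influence on how these functions are set in offspring.

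Of 11018 genes tested, 79 passed an adjusted p of 0.05 (0.717% of those tested), 49 lower and 30 higher after HP pregnancy than after HP lactation (0.445% and 0.272%). Signals are the authors' array intensities, and a difference is the mean log2 signal after HP pregnancy minus that after HP lactation, so negative values mark genes lower after HP pregnancy. The differences were moderate: 8 genes differed more than 2-fold, 7 of them lower, and the median size of the 79 was 0.70 on the log2 scale. In all 79 the signals of the HP groups did not overlap, which was so in 22.9% of all genes tested (12.1% higher and 10.8% lower after HP pregnancy). Across all genes the median difference was -0.008, and 1916 genes had an unadjusted p under 0.05 (17.4%).

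The larger number of lower genes depended on the scaling and on single arrays. With each array scaled to an equal 75th percentile, 25 genes were lower and 60 higher, 55 of the 79 genes still passed, and the median of all genes was 0.046. The number of genes called depended on single arrays. Without HP lactation replicate 4, 3 genes passed (Fads6, Slc37a4 and Ctdspl). The 79 differences were then at 69.0% to 118% of their size with all arrays (median 89.7%). Their signs could not turn, because the HP groups did not overlap in any of the 79. Calls numbered 22 without HP pregnancy replicate 1, 3 without replicate 2 and 2 without replicate 3. Without HP lactation replicate 5 there were 251 calls, with the split turned (155 higher, 96 lower), and without replicate 6 there were 2. With the 6 compared arrays alone, 1 gene passed (Fads6).

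HP lactation replicate 4 stood apart in several measures. Xist, the RNA of the inactive X chromosome, had signals of 5080, 2279 and 11644 on its 3 probe sets there, and at most 35.3, 44.9 and 93.0 on any other array of the series except control day 21 replicate 2. The Y-linked gene Eif2s3y had signals of 2504, 2799.7 and 2825 after HP pregnancy and 1990.4, 2273 and 2694 after HP lactation, so that this pool held Y-linked RNA as well. Its median correlation with the arrays of its own group was 0.968, against 0.974 and 0.973 for replicates 5 and 6 and 0.978 to 0.979 within HP pregnancy. In 57 of the 79 genes replicate 4 lay farthest from the HP pregnancy arrays of the 3 HP lactation arrays. The share over all genes is not given for this count, so it is no result about the 79. The part of replicate 4 in the results was not tested beyond leaving it out. The 3'/5' signal ratio of the Gapdh control probe sets, a measure of RNA integrity, was 1.77, 1.67 and 1.8 after HP pregnancy and 1.73, 1.76 and 1.55 after HP lactation, and 25 genes passed with it as a covariate. The same ratio for actin did not overlap between the groups, at 6.07, 6.5 and 6.25 after HP pregnancy and 5.8, 5.81 and 5.45 after HP lactation, beside 4.13, 6.38 and 4.06 in control. With the actin ratio as a covariate, an alternative chosen after seeing the data, 27 genes passed (8 higher, 19 lower), 25 of them among the 79. None of the 79 changed sign in that fit, and Fads6 and Slc37a4 passed at -1.02 and -1.12 (adjusted p = 0.00279 and 0.00103).

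**Figure D1:**
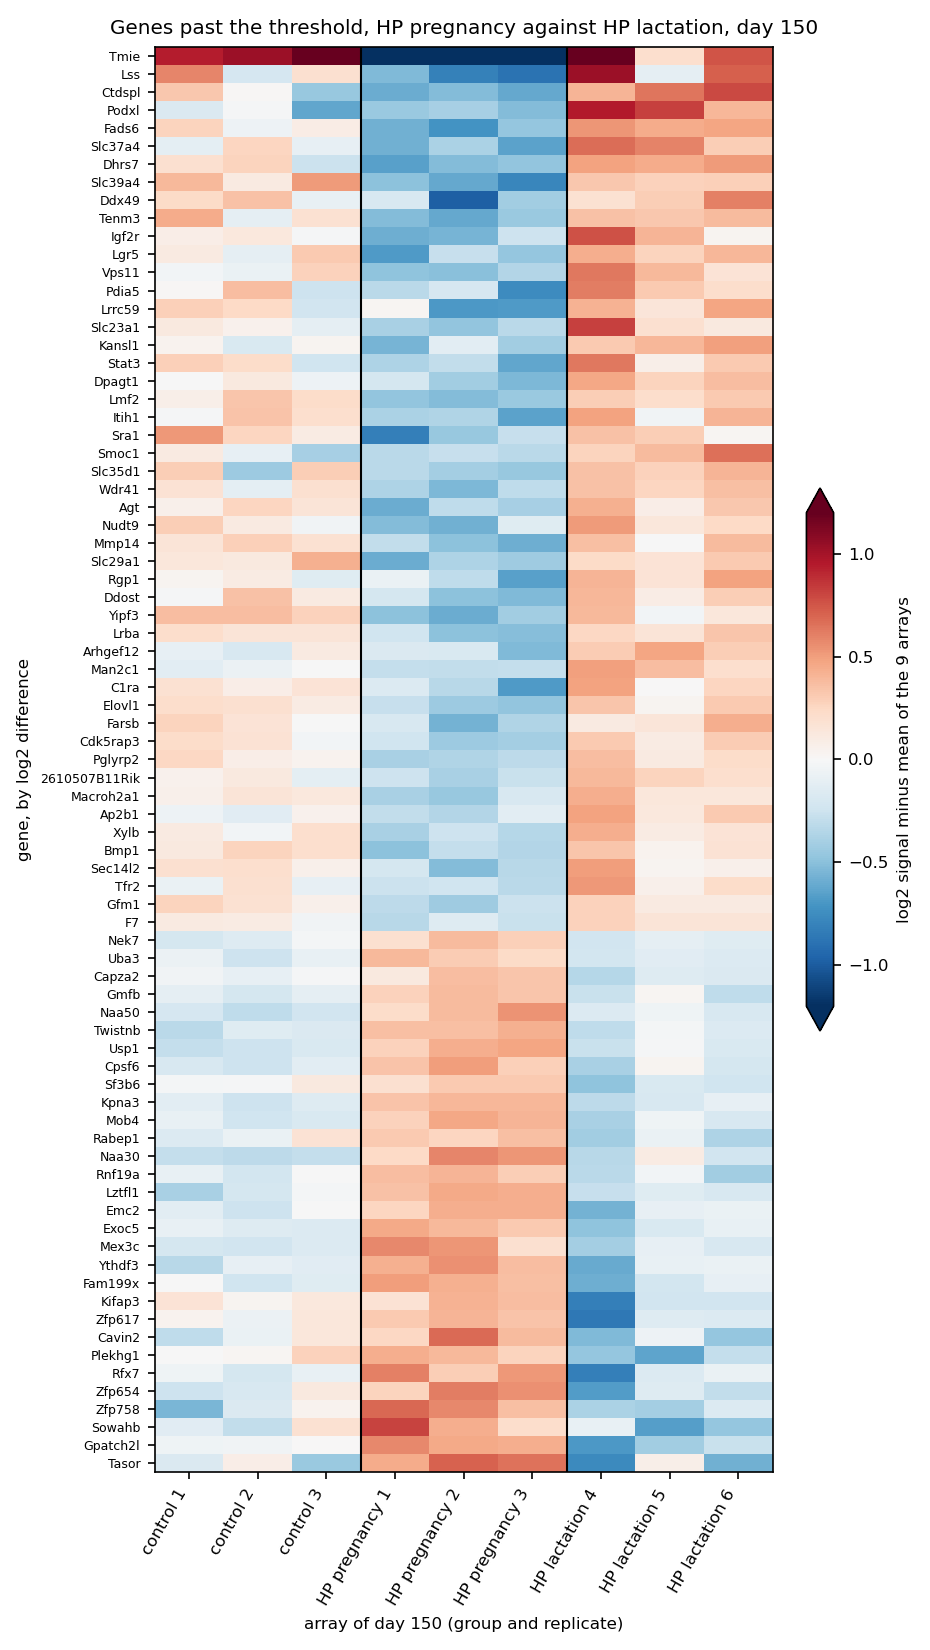
Each row is 1 of the 79 genes and each column 1 array of day 150 (control, HP pregnancy and HP lactation, 3 each). Colour is the log2 signal minus the gene's mean over the 9 arrays, with the scale ending at 1.2 in either direction. The 49 genes at the top are low in the 3 HP pregnancy arrays, the 30 at the bottom are high there, and HP lactation replicate 4 often has the strongest colour of its group.

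Cholesterol synthesis contributed 1 called gene. Lss, lanosterol synthase, which closes the sterol ring, had signals of 569.5, 468 and 443 after HP pregnancy and 1674, 759 and 1350.5 after HP lactation. All 3 HP pregnancy arrays were below all 3 HP lactation arrays, and the level was 2.44-fold lower (log2 difference -1.29, SE 0.28, adjusted p = 0.0438). Without HP lactation replicate 4 it was -1.05 and did not pass (adjusted p = 0.266). Of 20 cholesterol synthesis genes tested, 0 rose and 1 fell, 18 differences were negative, and the median was -0.40 beside -0.008 over all genes. It was -0.28 without HP lactation replicate 4. In 7 of the 20 the HP pregnancy arrays were all the lower, as in 10.8% of all genes.

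Other members of the pathway lay apart without passing. Fdps, which makes farnesyl diphosphate, had signals of 2967, 2197 and 2625 after HP pregnancy and 6010.1, 4011 and 5353 after HP lactation (log2 difference -0.97, SE 0.26, adjusted p = 0.0747). Dhcr7, of the last step to cholesterol, had 1292, 1026 and 971.5 and 2626, 1443 and 2246 (log2 difference -0.91, SE 0.26, adjusted p = 0.0896). In both genes HP lactation replicate 5 was the lowest array of its group and the nearest to the HP pregnancy arrays. Sqle, squalene epoxidase, showed the same order with 1731.5, 1695 and 1423 against 3636, 1819.8 and 3738 (log2 difference -0.86, SE 0.34, adjusted p = 0.198). Msmo1, a sterol oxidase, had 4627, 4012 and 3262 against 8093, 5557 and 8332 (log2 difference -0.88, SE 0.30, adjusted p = 0.143). Ebp, the sterol isomerase, had 8951, 8785 and 9044 against 13518, 10518 and 10825.5 (log2 difference -0.37, SE 0.12, adjusted p = 0.118), and its HP pregnancy arrays were also below the control arrays of 12437, 12876 and 12551. Fdft1, squalene synthase, was at -0.55 (adjusted p = 0.194).

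The start regions of these genes are shown because the list lay mostly on one side. RefSeq windows of GRCm38.p6, from 250 bases before a gene's start to 50 after it, were matched by symbol for 16 of the 20 genes, and those of the 3 with the smallest p that matched are given 5′ to 3′. Capitals mark the motif CCAAT, the core bound by NF-Y, on either strand, so that ATTGG is CCAAT on the opposite strand. Lss is at chr10:76531355-76531654, strand +, Dhcr7 (the first of its 3 windows) at chr7:143822917-143823216, strand +, and Ebp at chrX:8193463-8193762, strand -.
Lss: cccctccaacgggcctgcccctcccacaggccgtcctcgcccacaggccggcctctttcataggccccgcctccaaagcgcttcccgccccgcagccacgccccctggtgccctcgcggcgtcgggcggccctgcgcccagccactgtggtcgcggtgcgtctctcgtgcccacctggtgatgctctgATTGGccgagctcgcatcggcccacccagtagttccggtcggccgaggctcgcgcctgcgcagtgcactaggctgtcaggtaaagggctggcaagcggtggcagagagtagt
Dhcr7: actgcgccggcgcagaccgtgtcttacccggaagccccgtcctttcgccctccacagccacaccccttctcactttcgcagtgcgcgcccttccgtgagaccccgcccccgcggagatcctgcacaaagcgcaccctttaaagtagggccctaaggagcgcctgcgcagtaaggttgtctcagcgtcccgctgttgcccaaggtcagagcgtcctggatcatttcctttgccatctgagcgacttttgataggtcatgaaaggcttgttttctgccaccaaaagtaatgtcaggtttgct
Ebp: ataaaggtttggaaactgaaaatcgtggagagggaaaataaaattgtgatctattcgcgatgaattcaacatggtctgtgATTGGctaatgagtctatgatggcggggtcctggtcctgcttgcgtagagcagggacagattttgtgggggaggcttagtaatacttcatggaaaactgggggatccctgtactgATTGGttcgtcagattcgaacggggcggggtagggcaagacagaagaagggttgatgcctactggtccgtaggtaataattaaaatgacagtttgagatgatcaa
Lss holds 1 CCAAT, which begins 62 bases before the start, Ebp holds 2, and this Dhcr7 window holds 0. Counting any window of a gene, 16 of 16 matched cholesterol synthesis genes hold CCAAT, beside 41.1% of all 27025 genes with a window. Those 27025 genes are not limited to the genes tested. Counting the first window alone, 15 of the 16 cholesterol synthesis genes do (93.8%), beside 37.9%. Of 21 matched genes of fatty acid and triglyceride synthesis, 15 hold it in any window (71.4%) and 12 in the first (57.1%). Among the called genes, 15 of 39 matched lower genes and 6 of 22 matched higher genes hold it in any window (38.5% and 27.3%). The sterol element TCACNCCAC, searched on both strands, was in 1 of the 16 cholesterol synthesis genes, Hmgcs1, and in 1.44% of all genes. A match is a stretch of letters and was not tested as a binding site.

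Of 26 genes of fatty acid and triglyceride synthesis, 0 passed in either direction, yet 25 differences were negative and the median was -0.36 beside -0.008 over all genes. It kept its sign in every alternative (-0.407 to -0.302), and was -0.30 without HP lactation replicate 4. In 13 of the 26 the HP pregnancy arrays were all the lower, as in 10.8% of all genes. Srebf1, the gene of SREBP-1, had signals of 1436, 1445 and 1843 after HP pregnancy and 3510.4, 2417 and 2889.8 after HP lactation (log2 difference -0.89, SE 0.23, adjusted p = 0.0721). Fads2, the delta-6 desaturase of polyunsaturated fatty acids, had 2514, 3578 and 3193 and 5806, 6234 and 4167 (log2 difference -0.80, SE 0.19, adjusted p = 0.0542). Both sets of arrays were separated while the adjusted p missed the threshold. Fasn, fatty acid synthase, had 1604, 891 and 1232 and 2826, 1633 and 3728 (log2 difference -1.10, SE 0.54, adjusted p = 0.298), and its arrays differed widely within each group. Mlxipl, which encodes the glucose-sensing factor ChREBP, was at -0.41 (adjusted p = 0.087), Acacb, the carboxylase that makes malonyl-CoA at mitochondria, at -0.75 (adjusted p = 0.11), and Scd1, the stearoyl-CoA desaturase, at -0.10 (adjusted p = 0.795). Fasn and Scd1 are outside the rule for naming genes and were chosen after their values were seen, as was G6pc below.

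Outside these lists, Fads6, named after fatty acid desaturases, gave the most stable difference. Its signals were 1113, 1010.2 and 1203 after HP pregnancy, 2386, 2253 and 2306 after HP lactation and 1998, 1585 and 1765 in control. The groups did not overlap, control lay between them, and the level was 2.09-fold lower after HP pregnancy (log2 difference -1.07, SE 0.14, adjusted p = 0.00292). It passed in all 20 alternatives, with a largest adjusted p of 0.0477. Elovl1, an elongase of very long chain fatty acids, was lower with 1553, 1392 and 1348 against 2359.5, 1919 and 2339 (log2 difference -0.62, SE 0.14, adjusted p = 0.0478). Dhrs7, a short-chain dehydrogenase, had 505, 554 and 571.5 against 1107, 1079 and 1131 (log2 difference -1.03, SE 0.19, adjusted p = 0.0313). The HP lactation arrays of Dhrs7 were close together and all above the control arrays of 903.5, 953 and 664. Lmf2, a lipase maturation factor, and Sec14l2, a lipid-binding protein, were lower at -0.75 and -0.55.

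In glucose metabolism 1 of 33 genes passed. Slc37a4, the transporter that brings glucose 6-phosphate into the endoplasmic reticulum for hydrolysis, had signals of 3224, 3716 and 3085 after HP pregnancy and 7689, 7282 and 5918.5 after HP lactation. Control was between them at 4432, 5750.2 and 4496.5, and no array of one HP group reached the other. The level was 2.08-fold lower after HP pregnancy (log2 difference -1.06, SE 0.14, adjusted p = 0.00292), and it passed in 19 of 20 alternatives, missing with the compared arrays alone (adjusted p = 0.0522). G6pc, the glucose 6-phosphatase that acts on the transported sugar, had 7949, 8081 and 4429.6 and 10147, 8519 and 10573 (log2 difference -0.56, SE 0.36, adjusted p = 0.444). Gckr, the regulator of glucokinase, was at -0.44 (adjusted p = 0.0738), and Pck1, the gluconeogenic carboxykinase, at -0.19 (adjusted p = 0.669). The list's median was -0.21, with 23 of 33 differences negative. Xylb, xylulokinase, which is not on the list, was lower at -0.56 (adjusted p = 0.0385).

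**Figure D2:**
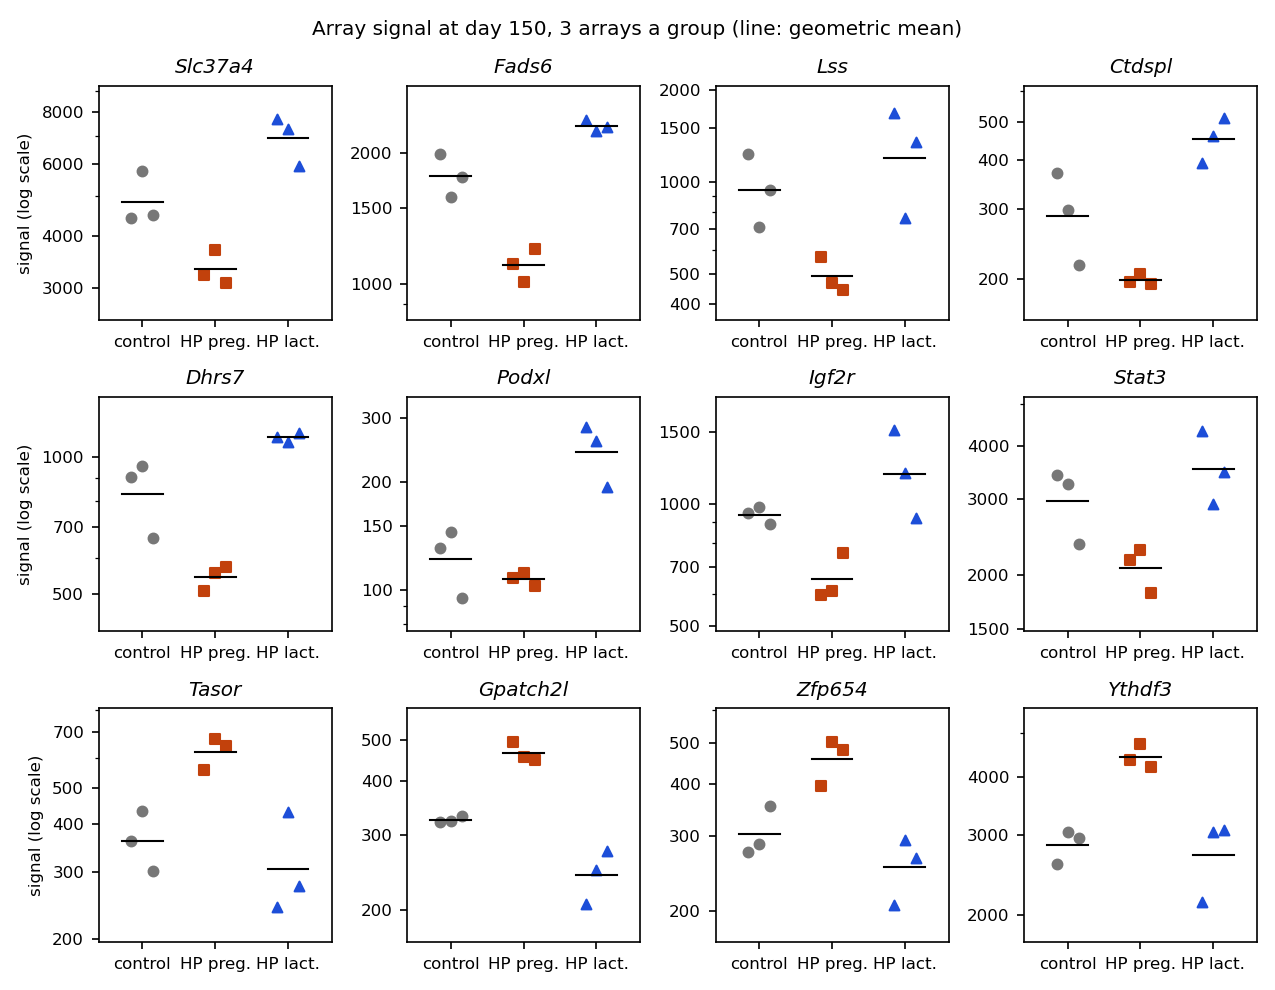
Signal of 12 genes on the 9 arrays of day 150, with a log axis in each panel; points are arrays and lines are geometric means of 3 arrays. The first 8 genes are lower and the last 4 higher after HP pregnancy, and in Slc37a4 and Fads6 control lies between the HP groups.

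Several called genes act in the endoplasmic reticulum and Golgi; they were grouped after their values were seen, so the grouping carries no test. Dpagt1, which starts the lipid-linked sugar chain of N-glycosylation, had 927, 804 and 737 against 1479, 1294 and 1389 (log2 difference -0.76, SE 0.14, adjusted p = 0.0313). Ddost, a subunit of the oligosaccharyltransferase, had 2255, 1866 and 1812 against 3449, 2782 and 3221 (log2 difference -0.67, SE 0.14, adjusted p = 0.0385). Pdia5, a disulfide isomerase, had 2202, 2395 and 1629 against 4192, 3422 and 3172 (log2 difference -0.80, SE 0.16, adjusted p = 0.0385). All 3 were lower after HP pregnancy. Slc35d1, a nucleotide sugar transporter, Lrrc59, a membrane protein of the endoplasmic reticulum, and Yipf3, of the Golgi, were lower too, at -0.74, -0.79 and -0.67. Man2c1, a mannosidase of the cytosol and so outside this grouping, was at -0.64. Of 33 chaperones and unfolded protein response genes, 0 passed, with a median of -0.10.

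Among plasma proteins, F7, coagulation factor VII, and C1ra, which starts the classical complement cascade, were lower. F7 had 2734, 3099.7 and 2863 after HP pregnancy against 4155, 3822 and 3832 after HP lactation (log2 difference -0.44, SE 0.09, adjusted p = 0.0385), and C1ra had 3164, 2815 and 2207 against 4937, 3555 and 4227 (log2 difference -0.64, SE 0.14, adjusted p = 0.0456). They were 2 of 42 complement and coagulation genes, with 0 higher. The list's median of -0.14 was -0.006 without HP lactation replicate 4. Also lower were Agt, the precursor of angiotensin, with 4361, 5347 and 5003 against 8879.7, 7000.4 and 8254 (log2 difference -0.71, SE 0.13, adjusted p = 0.0313), Itih1, an inter-alpha-trypsin inhibitor heavy chain (-0.75), and Pglyrp2, which cleaves peptidoglycan (-0.59). Of 9 hepatocyte markers 0 passed and all 9 were negative, with a median of -0.16 that was 0.106 without HP lactation replicate 4.

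Signalling genes that were lower included Stat3, the factor that carries interleukin-6 signals to acute phase genes. It had 2166, 2284 and 1817 after HP pregnancy and 4326, 2925 and 3476 after HP lactation (log2 difference -0.76, SE 0.16, adjusted p = 0.0406), and -0.62 without HP lactation replicate 4 (adjusted p = 0.250). It was the only one of 34 acute phase genes past the threshold, and that list's median of -0.19 was -0.003 without the same array. Igf2r, the imprinted receptor that clears insulin-like growth factor 2, had 598, 610.4 and 757 and 1521, 1188 and 920.0 (log2 difference -0.86, SE 0.19, adjusted p = 0.0438). HP lactation replicate 4 was the highest array in both genes. Igf2r was the only called gene of 22 in the growth hormone and IGF axis. Igfbp2, an IGF binding protein, lay apart without passing, with 8319.5, 8606 and 9585 against 12533, 16056 and 13108 (log2 difference -0.65, SE 0.16, adjusted p = 0.063). Igf1 itself had overlapping arrays, 14424, 15589 and 17421 and 21213, 15566 and 16344 (log2 difference -0.15, SE 0.13, adjusted p = 0.592), and a 95% interval of -0.44 to 0.13.

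Lgr5, a receptor for R-spondins found on hepatocytes around the central vein, had 73.5, 97.4 and 85.8 against 159, 142 and 156 (log2 difference -0.84, SE 0.18, adjusted p = 0.0428). It was 1 of 26 pericentral genes, whose median was -0.25 and -0.14 without HP lactation replicate 4. Tfr2, transferrin receptor 2, a sensor of iron in hepatocytes, had 10464, 10589.5 and 9937 against 17935, 13033 and 14508 (log2 difference -0.54, SE 0.11, adjusted p = 0.0389) and was the only one of 22 iron genes to pass. In the bile acid list 0 of 27 passed. Cyp8b1, which makes cholic acid, had 5473.5, 3489 and 4261 against 9592, 6624.5 and 6213 (log2 difference -0.76, SE 0.20, adjusted p = 0.0738), while Cyp7a1, the rate-limiting enzyme, overlapped with 1163, 1477 and 3630.2 against 2936, 3070.3 and 1961 (log2 difference -0.50, SE 0.44, adjusted p = 0.595). Cyp27a1, which oxidises the sterol side chain, was at -0.58 (adjusted p = 0.0644).

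Enzymes that handle dietary protein did not pass. Of 48 genes of amino acid breakdown 0 were called, 30 were negative, and the median was -0.16 (-0.08 without HP lactation replicate 4). Pcca, of propionyl-CoA carboxylase, had 2158, 1672 and 1929 after HP pregnancy against 2458, 2385.5 and 2876 after HP lactation (log2 difference -0.43, SE 0.12, adjusted p = 0.0879). Gcsh, of the glycine cleavage system, had the opposite order with 12094, 11934 and 12147 against 8847, 8956 and 10735 (log2 difference 0.35, SE 0.10, adjusted p = 0.0897). The arrays of both genes were apart, and those of Gcsh were close together after HP pregnancy. Gpt, alanine aminotransferase, and Prodh, proline dehydrogenase, were at -0.40 and -0.64 (adjusted p = 0.0969 and 0.115). Of 13 urea cycle genes 0 passed. Cps1, which fixes ammonia in the first step, was at -0.01 (95% interval -0.33 to 0.31), and Ass1, argininosuccinate synthetase, was at -1.58 (adjusted p = 0.139) on a probe set of signals from 116 to 581. In methionine and one-carbon metabolism 0 of 26 passed, with a median of -0.14, and Shmt2 and Dmgdh, of mitochondrial folate metabolism, were at -0.33 and -0.36 (adjusted p = 0.119 and 0.141). Of 26 ATF4 target and serine synthesis genes, which respond to amino acid shortage, 0 passed, and Asns, asparagine synthetase, was at -0.07 (95% interval -0.98 to 0.83).

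Fatty acid oxidation under PPAR alpha had 0 called of 35 genes and a median of -0.06, which was 0.08 without HP lactation replicate 4. Hadha, of the mitochondrial trifunctional protein, had 2453, 2016 and 2651 against 3584, 2881 and 3181 (log2 difference -0.44, SE 0.11, adjusted p = 0.0721). Scarb1, the receptor of high density lipoprotein, had 1777, 2115 and 1596.5 against 2952, 2330.0 and 2405 (log2 difference -0.49, SE 0.13, adjusted p = 0.0747), in a list of 23 lipoprotein genes with 0 called. In phase I drug metabolism 0 of 49 passed, and Cyp2j6, a P450 of polyunsaturated fatty acids, was at 0.55 (adjusted p = 0.0863).

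Further lower genes, put side by side after their values were seen, included transporters. Slc39a4, a zinc importer, had 587, 538.5 and 479 after HP pregnancy against 1028, 996.5 and 1001 after HP lactation and 1074, 884 and 1169 in control (log2 difference -0.92, SE 0.16, adjusted p = 0.0214). Slc23a1, a vitamin C transporter, was at -0.77 and Slc29a1, a nucleoside transporter, at -0.70. Podxl, the sialomucin podocalyxin, had 108, 111 and 102.5 against 283, 259 and 193 (log2 difference -1.18, SE 0.25, adjusted p = 0.0385). Its HP lactation arrays were well above the others of day 150. Ctdspl, a small phosphatase, had 195.5, 206 and 193 against 393, 461 and 513 (log2 difference -1.19, SE 0.19, adjusted p = 0.0166) and passed in 15 of 20 alternatives. It missed without HP pregnancy replicate 2 or 3 or HP lactation replicate 6 (adjusted p = 0.0754, 0.0842 and 0.0511). Tmie, a protein of hair cell mechanotransduction, had the largest difference, with 17.0, 19.3 and 8.3 against 174, 79.8 and 117 (log2 difference -3.07, SE 0.46, adjusted p = 0.00968). Its HP pregnancy signals were under the signal of 57.5 that the filter asked of a gene's mean and near background, so its size is uncertain.

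The remaining lower genes have varied roles. Tenm3, a teneurin adhesion protein, Ddx49, an RNA helicase, Vps11, a subunit of the complexes that fuse vesicles with lysosomes, and Kansl1, of a histone acetyltransferase complex, were at -0.88, -0.89, -0.84 and -0.77. Mmp14, a membrane-bound matrix metalloproteinase, was at -0.70 and was the only called gene of 34 stellate cell and matrix markers, whose median was 0.10. Bmp1, the procollagen C-proteinase, Smoc1, a matrix protein, and Macroh2a1, a histone variant, were at -0.56, -0.74 and -0.58. Farsb, of phenylalanyl-tRNA synthetase, Gfm1, a mitochondrial elongation factor, Nudt9, an ADP-ribose pyrophosphatase, and Ap2b1, of clathrin adaptor 2, were at -0.61, -0.50, -0.71 and -0.57. Sra1, Wdr41, Rgp1, Lrba, Arhgef12, Cdk5rap3 and 2610507B11Rik complete the 49, between -0.74 and -0.59. Of the 79 called genes, 35 fell outside the rule for naming genes and are given here after their values were seen.

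Genes higher after HP pregnancy had smaller differences, and many act on chromatin, RNA or proteins inside the cell; they too were grouped after their values were seen. Tasor, of the HUSH complex that silences chromatin, had 558, 669.7 and 645 after HP pregnancy and 242, 430.3 and 275 after HP lactation, with 363, 433 and 302 in control (log2 difference 1.02, SE 0.19, adjusted p = 0.0313). Its HP pregnancy arrays were all above both other groups. Gpatch2l, a G-patch protein, had 495, 456 and 449 against 206, 248 and 275 (log2 difference 0.95, SE 0.20, adjusted p = 0.0385). Ythdf3, a reader of methylated adenosine in RNA, had 4355, 4737 and 4208 against 2134, 3044 and 3062.5 (log2 difference 0.71, SE 0.16, adjusted p = 0.0456). The zinc finger genes Zfp654, Zfp758 and Zfp617 were higher at 0.85, 0.86 and 0.75, and Rfx7, a winged-helix factor, at 0.83.

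Of RNA handling genes, Cpsf6, of pre-mRNA 3′ end cleavage, Sf3b6, of the spliceosome, Mex3c, an RNA-binding ubiquitin ligase, and Twistnb, a subunit of RNA polymerase I, were higher at 0.57, 0.58, 0.66 and 0.55. Naa30 and Naa50, catalytic subunits of N-terminal acetyltransferases, were at 0.61 and 0.52. Naa50 had 4366, 4881 and 5444.5 against 3335, 3625 and 3284 (log2 difference 0.52, SE 0.11, adjusted p = 0.0438). Uba3, of the NEDD8-activating enzyme, Usp1, a deubiquitinase, and Rnf19a, a ubiquitin ligase, were at 0.48, 0.55 and 0.62. Kpna3, a nuclear import receptor, Exoc5, of the exocyst, Rabep1, an endosome fusion factor, and Emc2, of the membrane protein insertion complex, were at 0.58, 0.64, 0.60 and 0.62. Cavin2, a caveola protein, Kifap3, of a kinesin complex, Lztfl1, which controls traffic to cilia, Capza2, which caps actin, and Nek7, a kinase, were at 0.79, 0.74, 0.62, 0.50 and 0.45. Plekhg1, Sowahb, Fam199x, Mob4 and Gmfb complete the 30, between 0.51 and 0.89. Of all 79 genes, 34 had a single kept probe set, 34 had others that all ran the same way, and 11 had at least 1 with the opposite sign (Slc35d1, Yipf3, Farsb, Nek7, Gmfb, Usp1, Rabep1, Naa30, Lztfl1, Cavin2 and Rfx7).

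Just outside the threshold were 50 genes with an adjusted p between 0.05 and 0.06, beside 0.0478 for the last gene inside. The nearest included Tasor2, a relative of Tasor, at 0.71, Bmpr2, a receptor of bone morphogenetic proteins, at 0.65, and Sec14l4 at -0.54, each with an adjusted p of 0.0504; these 3 were named for being nearest. Postn, the matrix protein periostin, had 524, 712 and 569 after HP pregnancy against 228, 374 and 284 after HP lactation (log2 difference 1.04, SE 0.24, adjusted p = 0.0504).

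**Figure D3:**
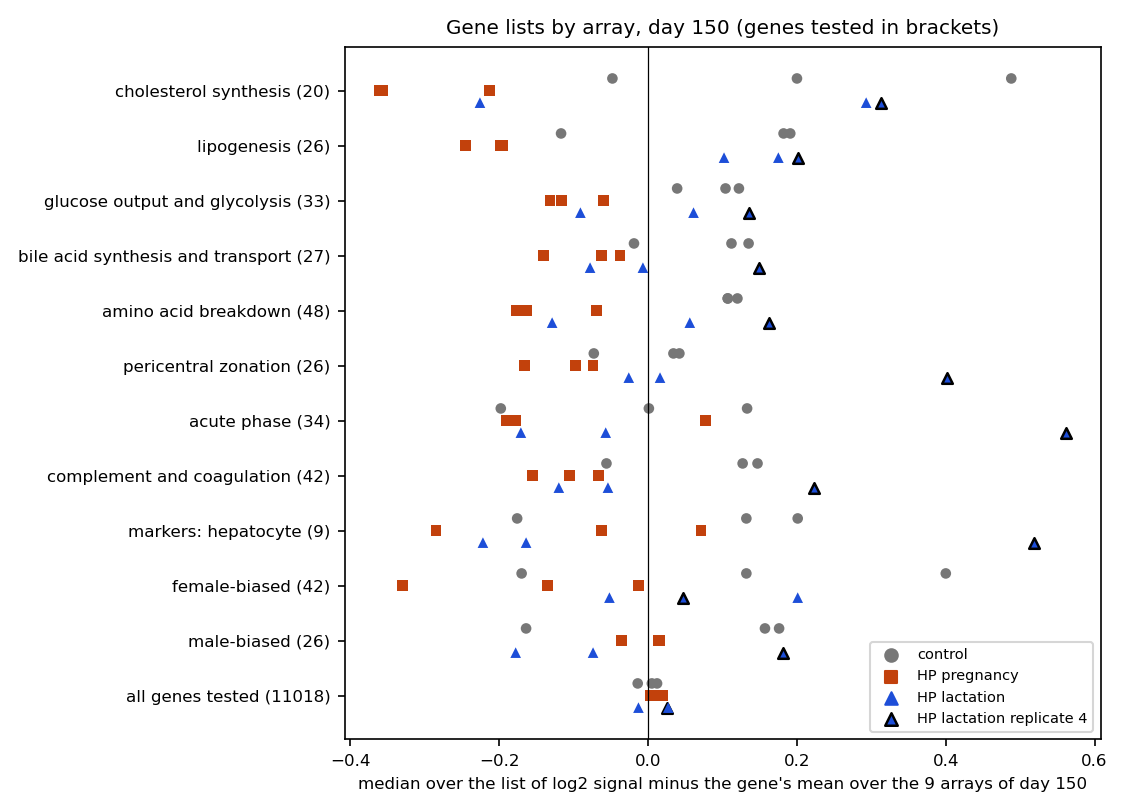
Points give, for each of the 9 arrays of day 150, the median over a gene list of the log2 signal minus each gene's mean over the 9 arrays; the outlined triangle is HP lactation replicate 4. In lipogenesis the 3 HP pregnancy arrays (-0.245 to -0.195) lie below the 3 HP lactation arrays (0.102 to 0.201), whereas in the acute phase, complement and hepatocyte marker lists replicate 4 stands to the right of all the others.

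The per-array medians show how the lists were carried. For lipogenesis they were -0.199, -0.245 and -0.195 after HP pregnancy and 0.201, 0.102 and 0.175 after HP lactation, without overlap. For cholesterol synthesis they were -0.213, -0.361 and -0.357 against 0.313, -0.226 and 0.293, so that HP lactation replicate 5 lay among the HP pregnancy arrays. For acute phase genes replicate 4 was at 0.562 and the other 8 arrays between -0.198 and 0.133. Oxidative phosphorylation (70 genes), ribosomal proteins (43) and proteasome subunits (37) had 0 called genes and medians of -0.01, -0.03 and 0.03, all 3 with the sign turned without HP lactation replicate 4 (0.082, 0.078 and -0.026).

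Control offspring of day 150 place these differences. The comparisons of each HP group with control share their control arrays with each other and their HP arrays with the comparison above, so they are given side by side as values. Against control, 39 of the 79 genes passed for HP pregnancy (2.63% of all genes did) and 0 for HP lactation (0.00908%). The HP pregnancy mean was farther from control than the HP lactation mean in 67 of the 79, and control lay between the HP groups in 68. The 79 were chosen for the gap between the HP groups, which by itself favours a control between them. Shares over all genes are not given for these counts, so they are no result about the 79. For HP pregnancy minus control, Slc37a4 was at -0.54 (adjusted p = 0.0456), and for HP lactation minus control at 0.51 (adjusted p = 0.406). Slc39a4 was at -0.96 (adjusted p = 0.0132) and -0.04 (adjusted p = 0.968). Podxl ran the other way, at -0.18 (adjusted p = 0.739) and 0.99 (adjusted p = 0.365). In 13 clock genes that peak towards dusk, the list median was 0.85 for HP pregnancy minus control and 0.96 for HP lactation minus control. Per array it was -0.29, -0.974 and -0.461 in control. It ran from -0.477 to 0.743 after HP pregnancy and from -0.105 to 0.803 after HP lactation. The part of clock phase in the comparisons with control was not tested.

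The same diets were compared at day 21 on other arrays. There 141 genes passed between HP pregnancy and HP lactation (1.28% of those tested). Of the 79 genes of day 150, 69 had the same sign at day 21, 41 of the 49 lower and 28 of the 30 higher genes, beside 62.7% of all genes tested. All 79, which were chosen by their day 150 values, had a smaller difference at day 21, and 1 of them passed there. That gene was Fads6, with 1568, 1901 and 1927 after HP pregnancy and 3059, 2276 and 3075 after HP lactation at day 21 (log2 difference -0.63, SE 0.14, adjusted p = 0.0284). Slc37a4 was at -0.54 (adjusted p = 0.0679) and Lss at -0.89 (adjusted p = 0.137). None of the 79 passed the test of a difference between the days in limma (lowest adjusted p = 0.09998, for Tmie). That test called 2 of all 11018 genes (0.0182%) and gave 888 an unadjusted p under 0.05.

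Neither of those 2 genes passed at day 150. Mup3, a major urinary protein of the male liver whose probe set may also bind related Mup transcripts, had 17234, 17849 and 16326 after HP pregnancy and 23580.0, 15440.4 and 14423 after HP lactation at day 150. At day 21 it had 23654, 21185 and 25360.1 and 1309, 3743.5 and 3913, so that the day 21 arrays were apart and those of day 150 overlapped. Its difference was -0.02 at day 150 and 3.12 at day 21 (difference between days -3.15, adjusted p = 0.00493). Cyp2d13, a cytochrome P450, had 5306, 5169.5 and 4842 and 6454, 5847 and 6378 at day 150 and 4866, 5498 and 5252 and 3627, 3371.5 and 3728.5 at day 21. It was higher after HP pregnancy at day 21 (0.54) and at -0.29 at day 150 (difference between days -0.83, adjusted p = 0.0494). It passed in 9 of 25 alternatives and Mup3 in 24, counting the adjusted p under 0.10, which both pass by definition.

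**Figure D4:**
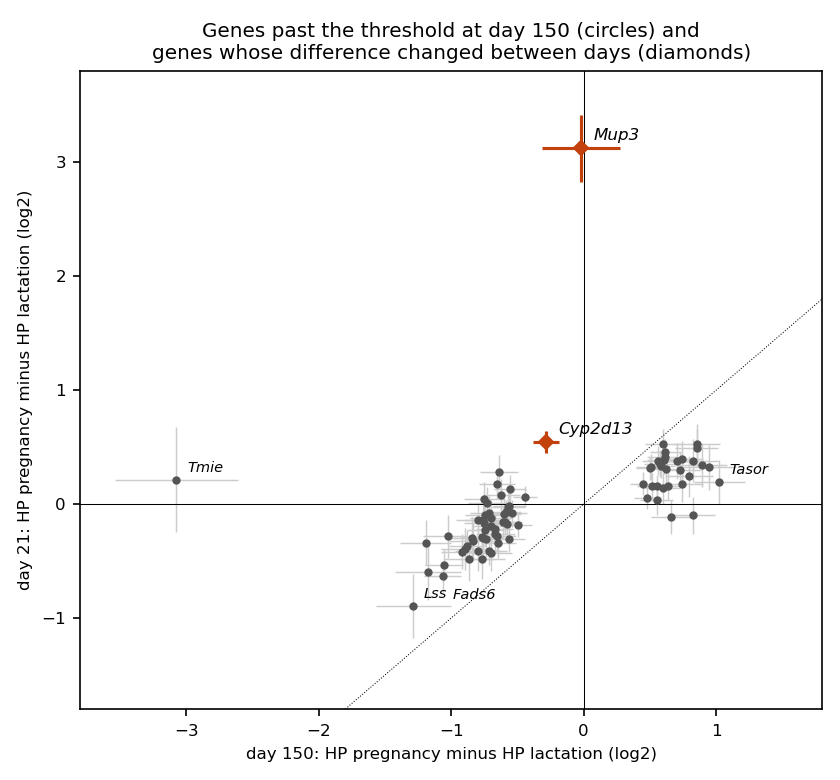
Difference between HP pregnancy and HP lactation at day 150 (x) and day 21 (y), log2 with standard errors, for the 79 genes called at day 150 (circles) and the 2 genes whose difference changed between days (diamonds). The dotted line marks equal differences; 69 of the 79 circles have the same sign on both axes, all nearer to 0 at day 21, and Mup3 stands at 3.12 at day 21 and -0.02 at day 150.

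Male-biased and female-biased liver genes were listed because growth hormone sets them apart by sex, and no sex is given in the labels. Of 26 male-biased genes 0 passed at day 150, with a median of 0.03 (-0.03 to 0.17 over the alternatives). Hsd3b5, a male-specific steroid reductase, had 15919, 14037 and 14541.5 against 12652, 8580.3 and 11669.9 (log2 difference 0.45, SE 0.42, adjusted p = 0.62) and was at 3.57 at day 21. Of 42 female-biased genes 0 passed, 30 differences were negative and the median was -0.24, with or without HP lactation replicate 4. Cyp3a16, a P450, came nearest at -3.53 (adjusted p = 0.0569), but its signals of 3.0, 1.2 and 2.6 and 12.3, 47.4 and 24.9 were all under 57.5. Fmo1, a monooxygenase with a strong signal, had 3059.6, 3089 and 3236.5 against 4593, 3814 and 5071 (log2 difference -0.51, SE 0.14, adjusted p = 0.0778).

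Markers of other liver cells did not pass, apart from Mmp14. The summed signal of 31 macrophage and Kupffer cell markers ran from 63107 to 67427 after HP pregnancy and from 47769 to 64924 after HP lactation. Of the 28 tested 0 were called, and their median was 0.151. Without HP lactation replicate 4 it was 0.15, with 5 of them negative. The summed signal of 30 endothelial markers ran from 33145 to 40199 and from 27867 to 33799. The lowest HP pregnancy sum was inside the HP lactation range for both. Bmp2 and Rspo3, signals made by the endothelium, had all HP pregnancy arrays higher, as in 12.1% of all genes, at 0.82 and 0.61 (adjusted p = 0.124 and 0.0864). The median of the 30 endothelial markers was 0.047, and 12 of them were negative without HP lactation replicate 4. Rgs5, a marker of pericytes, had 4999.7, 7624 and 6373 against 3803, 4613 and 3997 (log2 difference 0.60, SE 0.16, adjusted p = 0.0738). The 16 bile duct markers summed to 13675 to 16476 and 16470 to 25187, with Krt8 and Krt18, keratins that hepatocytes also make, at -0.52 and -0.52. Of the 10 bile duct markers tested 5 were positive, among them Tspan8, a tetraspanin, at 0.76 with its arrays apart (adjusted p = 0.285). The 9 hepatocyte markers summed to 245702 to 305228 after HP pregnancy and 262513 to 433453 after HP lactation. The part of cell composition in the 79 differences was not tested. Of 21 T and NK cell markers 16 were under the filter, Cd3d, Cd3e and Cd3g among them. Their sums of 2141 to 2372 after HP pregnancy and 1646 to 2083 after HP lactation did not overlap. A large part of each sum was Ptprc, the leukocyte antigen CD45, at 1303.2 to 1376.9 and 853.3 to 1255.0. Ptprc was higher in all 3 HP pregnancy arrays (0.41, adjusted p = 0.186). The other tested markers, Gzma, Klrd1, Prf1 and Ccl5, had overlapping arrays (0.51, 0.17, 0.42 and -0.02). The sums therefore cannot tell T and NK cells from other leukocytes. Of 16 pancreas, gut and muscle markers 13 were under the filter. Their sums of 16646 to 19167 after HP pregnancy and 12894 to 13967 after HP lactation did not overlap. Most of each sum was Cela1 and Fabp2, both higher in all 3 HP pregnancy arrays (0.39 and 0.50, adjusted p = 0.237 and 0.0833). Cela2a, the other tested marker, was lower in all 3 (-1.25, adjusted p = 0.158). No marker had a signal of 0. In pooled tissue, fewer cells of a type and less RNA per cell cannot be told apart. The DNA methyltransferases Dnmt1, Dnmt3a and Dnmt3b were at -0.15, -0.11 and 0.10, with adjusted p of 0.724, 0.851 and 0.916, and 0 of 13 DNA methylation genes passed.

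**Figure D5:**
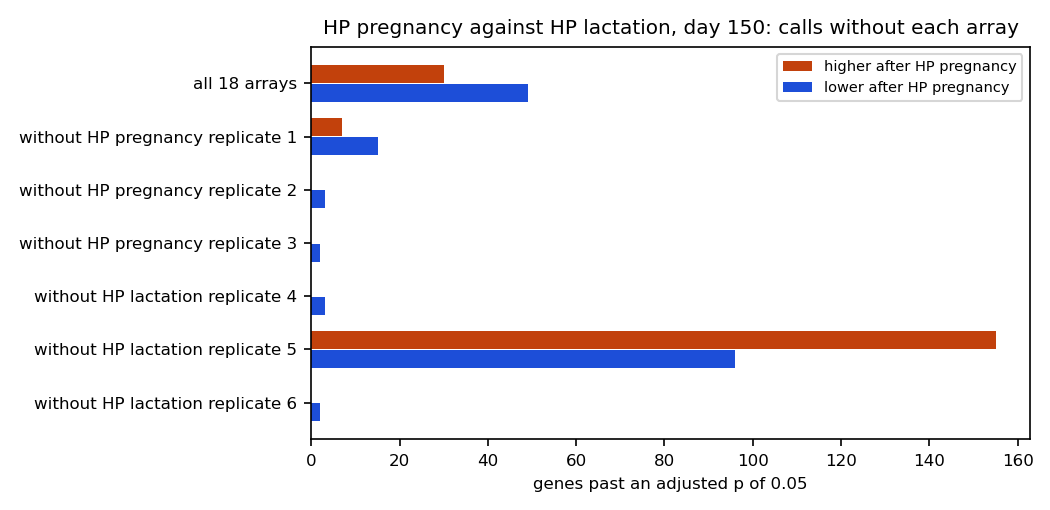
Bars count the genes past an adjusted p of 0.05, higher or lower after HP pregnancy, with all 18 arrays and without each of the 6 compared arrays. From 30 and 49 with all arrays, the counts range from 0 higher and 2 lower genes to 155 and 96 without HP lactation replicate 5.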

How the data were processed

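Liver RNA pools were measured on Affymetrix Mouse Genome 430 2.0 arrays. The deposited values are signal intensities on a linear scale, made by the authors with MAS5 in GCOS 1.4 per the submitters' processing notes; the mean after trimming 2% at each end was 500.0 on each array. Detection calls and scan dates were not used here. Of 45101 probe sets, 64 were controls, 34945 named 1 gene, 932 several and 9160 none, and 34741 were matched by gene ID to RefSeq (GRCm38.p6). Sets with a mean log2 signal of at least 5.85 (57.5), the median, were kept (22519), and the highest was taken per gene (11018 genes). Log2 signals (0 added) of all 18 arrays were fitted as 6 group means with limma 3.58.1 in R 4.3.3 (lmFit, eBayes with trend), two-sided, with Benjamini-Hochberg adjustment at 0.05. Standard errors pool the spread of all groups (12 residual and 6.47 prior degrees of freedom); with 3 arrays a group, the median was 0.189. The code was tested on simulated data. Figures used matplotlib 3.10.9 in Python 3.11.15.

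The members and the 48 gene lists were chosen with earlier results of these data known. Named were up to 20 genes in each direction with the largest difference among those past the threshold and separated, list members past the threshold or among the 6 with the smallest p, and a fixed set; others are marked. Alternatives changed the filter, scaling, pseudocount, probe set choice, trend, array weights, threshold or arrays fitted, or left out each HP array. For the day 150 comparison these were the 6 compared arrays. No control array was left out on its own. Others added a Gapdh 3'/5' covariate or, after seeing the data, an actin 3'/5' covariate. Every called gene passes the looser threshold by definition. Leaving out the arrays with Xist signal largely repeats leaving out HP lactation replicate 4.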

Additional observations from a re-analysis of the deposited data

Results flagged for a closer look

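The difference between HP pregnancy and HP lactation itself differed between day 150 and day 21 in 2 genes, by the test of that difference in limma. For Mup3, day 150 minus day 21 came to -3.15 in log2 units (SE 0.42, with adjusted p = 0.00493), with arrays overlapping at day 150 and separated at day 21. For Cyp2d13 it came to -0.827 (SE 0.14, adjusted p = 0.0494), with opposite signs at the 2 days.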

How the results depend on the processing

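None of the 79 genes changed sign in any of 20 alternatives, but in many of these the sign could not turn. Their HP groups did not overlap, so a left-out array could not turn it. A changed trend or threshold leaves the difference as it was. The number of calls moved. Against 79, calls numbered 38 with no filter, 130 with a filter at the 70th percentile, 126 with array weights, 16 without the trend, 418 at an adjusted p under 0.10, 1 with the compared arrays alone, 4 with the arrays of day 150 alone, 25 with the Gapdh and 27 with the actin 3'/5' ratio as a covariate (the latter chosen after seeing the data) and 3 without the arrays with Xist signal. Leaving out each of the 6 compared arrays gave 2 to 251. Quantile normalization gave 117 (46 higher, 71 lower), equal 75th percentiles 85 (60 and 25), 50 added to the signal 95 (45 and 50) and every kept probe set 106 (30 and 76). Each called gene passed in at least 5 of the 20, counting the adjusted p under 0.10, which a called gene passes by definition. Against 2 genes that differed between days, there were 1 with no filter, 5 with quantile normalization and 1 with equal 75th percentiles. There were 7 with 50 added, 8 with every kept probe set and 8 with array weights. In limma without the trend there were 0 (845 at an unadjusted p under 0.05). At an adjusted p under 0.10 there were 10, with either covariate 1, and without the arrays with Xist signal 1. Leaving out each HP array of either day gave 1 to 11 (11 without HP lactation day 21 replicate 2). The cause was not tested. No paired analysis was possible because the HP groups of day 150 share no replicate number. The number of arrays limits the precision, and a lone left-out array leaves 2 in its group.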

Other observations

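Of the genes called at day 150, 3 are near neighbours on chromosome 9 in the gene order of RefSeq: Dpagt1, Vps11 and Slc37a4. This was noticed after their values were seen. Among the genes tested between them, H2ax, a histone variant, was at -0.25 (adjusted p = 0.572) and Hyou1, a chaperone of the endoplasmic reticulum, at -0.60 (adjusted p = 0.132), with 3053, 2560.2 and 1489 after HP pregnancy against 3755, 3112 and 3500.4 after HP lactation. The neighbours outside, C2cd2l and Trappc4, were at -0.01 and -0.16. Chromosome 9 held 10 of the 79 called genes (1.62% of its 616 tested genes) and chromosome 14 held 8 (2.14% of 374), beside 0.717% of all genes. They were named after the values were seen, for having the highest shares. Chromosomes 2, 7 and 19 held 0 called of 857, 813 and 404 tested genes.

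Clock genes differed widely between arrays of a group. The per-array median of 13 clock genes that peak towards dusk was -0.477, 0.743 and 0.452 after HP pregnancy and 0.446, 0.803 and -0.105 after HP lactation, and 5 dawn genes ran opposite at 0.397, -0.715 and -0.309 against -0.552, -0.693 and 0.325. Per2, a clock repressor, had 183, 474.5 and 343 after HP pregnancy and 293.5, 675 and 277 after HP lactation, and Nfil3, a repressor of the opposite phase, 2309, 1261 and 1076 and 2567, 1279.5 and 3108. HP pregnancy replicate 1 and HP lactation replicate 6 were the lowest arrays of their groups in Per2 and the highest in Nfil3. The control arrays of Per2 were all lower, at 140.4, 145 and 119. Other clock genes had separated HP groups: Cry1, a repressor, had 661, 525 and 445 after HP pregnancy and 342.5, 357 and 348.5 after HP lactation (0.62, adjusted p = 0.166), and Bhlhe40, another repressor, 1042, 2048 and 1281 and 2925, 2253 and 2172.5 (-0.80, adjusted p = 0.124). No clock gene passed between the groups, and the sampling hour was not given in the labels used here.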
